A study of Mus musculus with 6 samples.

Results

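The genes described here are *Scn4a*, *Scn3b*, *Scn4b*, *Clcn1*, *Ano5* and *Atp1b1*, which encode sodium channel subunits, the muscle chloride channel, an anoctamin and a sodium pump subunit. They were chosen by symbol, as 6 of the 54525 gene rows in the count data. RNA-seq was performed on C2C12 cells, an immortal mouse myoblast line that stops dividing and fuses into multinucleated myotubes when serum is reduced. The D0 group held 3 cultures of proliferating myoblasts in fetal bovine serum, and the D5 group held 3 cultures after 5 days in horse serum, when myotubes have formed. All 6 cultures had the genotype WT and no treatment, and the labels give the cell type of both groups as myoblasts. All cultures came from a single cell line, so the spread between replicates is that between cultures and not between animals, and a dish at D5 can hold unfused cells beside myotubes.

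A muscle fiber fires an action potential when voltage-gated sodium channels open, and the signal spreads over the surface membrane. Chloride channels steady the resting potential between action potentials, and the sodium pump, a heterodimer of an alpha and a beta subunit, restores the sodium and potassium gradients. In humans, variants in the skeletal muscle sodium and chloride channel genes cause myotonia and periodic paralysis, and loss of *Ano5* function causes a limb-girdle muscular dystrophy.

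The promoters of 5 of the 6 genes were read from RefSeq (GRCm38.p6), each from 250 bases before the RefSeq start through the first 50 bases of the gene. Shown are those of *Clcn1* and *Scn4a*, whose products set the excitability of muscle, and of *Atp1b1*, which is expressed in many tissues. Capitals mark CANNTG, the E-box letters that myogenic regulatory factors bind, and the MEF2 consensus.
Clcn1: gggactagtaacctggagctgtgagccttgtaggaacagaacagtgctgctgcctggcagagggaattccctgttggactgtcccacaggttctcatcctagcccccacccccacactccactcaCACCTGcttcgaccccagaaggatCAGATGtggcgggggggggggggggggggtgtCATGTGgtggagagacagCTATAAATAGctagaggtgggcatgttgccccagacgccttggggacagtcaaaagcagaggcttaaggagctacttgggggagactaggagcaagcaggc
Scn4a: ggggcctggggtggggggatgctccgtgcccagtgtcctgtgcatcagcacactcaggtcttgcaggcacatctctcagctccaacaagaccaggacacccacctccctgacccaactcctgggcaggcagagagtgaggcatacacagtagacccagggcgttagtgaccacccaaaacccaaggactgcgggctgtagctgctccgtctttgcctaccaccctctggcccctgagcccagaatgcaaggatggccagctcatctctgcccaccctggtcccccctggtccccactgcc
Atp1b1: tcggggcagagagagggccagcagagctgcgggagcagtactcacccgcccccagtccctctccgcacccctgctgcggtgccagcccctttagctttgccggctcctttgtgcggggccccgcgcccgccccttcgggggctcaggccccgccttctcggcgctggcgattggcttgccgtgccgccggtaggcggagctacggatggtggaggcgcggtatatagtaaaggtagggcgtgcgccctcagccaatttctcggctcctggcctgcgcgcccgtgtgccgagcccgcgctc
The *Clcn1* window (chr6:42286435-42286734, plus strand) held 3 matches to CANNTG, which began 125, 101 and 69 bases upstream of the start, and 1 match to the MEF2 consensus that began 51 bases upstream. The MEF2 match, CTATAAATAG, overlapped a TATAAA at 50 bases upstream. The *Scn4a* window (chr11:106349341-106349640, minus strand) held no match on either strand to these or to the other 3 motifs searched. Its RefSeq start lay 3898 bases downstream of the start of the gene in the GENCODE annotation. The *Atp1b1* window (chr1:164458306-164458605, minus strand) held 2 matches to CCAAT and none to the other motifs. Of the promoters not shown, that of *Ano5* held 2 matches to CANNTG and 1 to CCAAT, and that of *Scn4b* held 1 match to CCAAT. Among 32851 promoters of this length, 72.3% held CANNTG and 3.19% held the MEF2 consensus. The other motifs searched were CAGCTG, which is a form of the E-box and occurred in 16.3% of promoters, TATAAA, which occurred in 13.6%, and CCAAT, which occurred in 37.4%. A match of letters is a description of the sequence and not a binding site.

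Counts on genes summed to 36555048 to 40895840 per D0 library and to 25449759 to 25811300 per D5 library. Levels are given as CPM, the counts scaled to 1000000 reads after TMM adjustment of library size. The detection limit was set at 3 counts per library, equal to at most 0.0801 CPM at D0 and 0.122 CPM at D5, and covers counting error only. All 5 myotube markers rose (*Myog*, *Mymk*, *Myh3*, *Ckm* and *Acta1*), with a summed level from 26.3 to 33.5 CPM at D0 and from 9815 to 10492 CPM at D5. All 5 myoblast markers (*Myod1*, *Myf5*, *Pax7*, *Mki67* and *Top2a*) fell, with a summed level from 1603 to 1608 CPM at D0 and from 193 to 196 CPM at D5. Most of that fall was in *Mki67* (704 to 20.4 CPM) and *Top2a* (554 to 18.5 CPM). *Myod1* kept 60.9% of its D0 level, at 126 CPM. In these bulk libraries, more cells of a type and more RNA per cell cannot be told apart.

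Of the 6 genes, 4 had enough counts to be tested and all 4 were higher at D5, beside 42.2% of the 16290 genes tested (edgeR's quasi-likelihood test, Benjamini-Hochberg adjusted p under 0.05). None was lower, beside 40.8% of all genes tested. *Scn4a* had enough counts only through its D5 libraries, so its call could only be higher. *Scn3b* and *Scn4b* had too few counts to be tested. In all 4 tested genes, every D5 library was above every D0 library in CPM, beside 42.2% of the genes tested. This was also so for *Scn3b*, which is not among the genes tested.

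**Figure D1:**
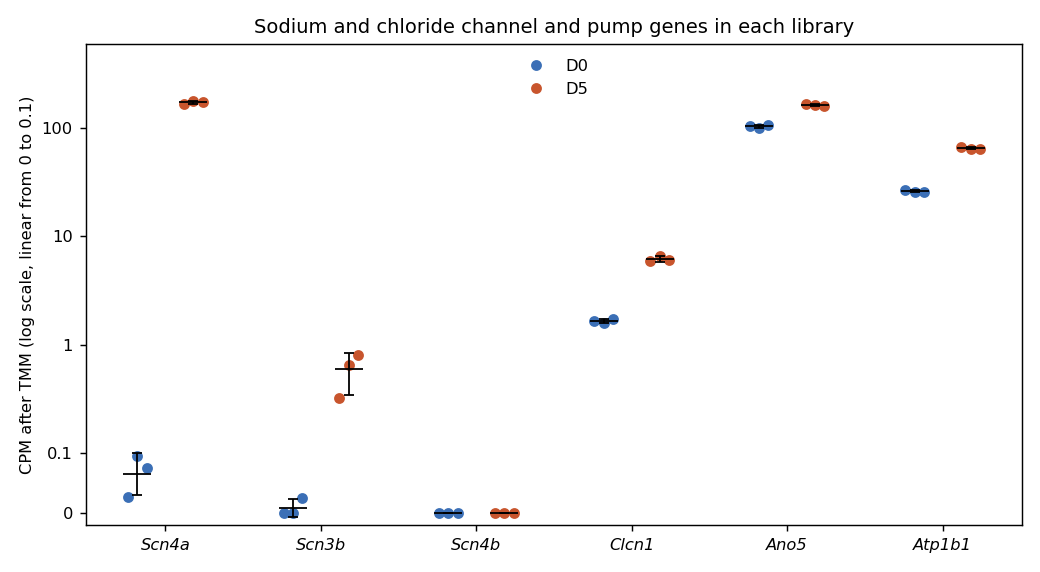
CPM after TMM scaling (y axis, logarithmic above 0.1 and linear below) of each gene (x axis) in the 3 D0 libraries (blue) and the 3 D5 libraries (orange). Each point is 1 library, with the mean as a line and the SD as a bar. *Scn4a* lies below 0.1 CPM in every D0 library and above 160 CPM in every D5 library, while *Scn4b* is at 0 throughout.

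*Scn4a* encodes the pore-forming alpha subunit of the sodium channel of adult skeletal muscle (ENSMUSG00000001027.7, GRCm38 chr11:106318592-106353288, minus strand). The D0 libraries held 1, 4 and 3 counts of *Scn4a*, or 0.0267, 0.0951 and 0.0745 CPM. The D5 libraries held 4212, 4440 and 4303 counts, or 168, 180 and 173 CPM. The groups were far apart, and D0 was close to the limit of detection in all 3 cultures. The ratio of the summed counts, scaled to library size, was 2599, with an exact 95% counting interval from 1318 to 6020. The log2 fold change of *Scn4a* was 11.26 ± 0.099 (SE, n = 3 per group) and the adjusted p 3.9e-37 by edgeR's quasi-likelihood test. This SE understates the error, since D0 held 8 counts in all: DESeq2 gave 11.35 ± 0.51, and fits without 1 library ranged from 10.91 to 11.60. Of the 6943 stretches of 50 bases in its transcripts, 5 also occurred in a paralog, so few reads could be split between genes.

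*Scn3b* encodes a beta subunit, a single-span membrane protein that binds the alpha subunit and shapes its gating and surface level (ENSMUSG00000049281.16, chr9:40269217-40291618, plus strand). *Scn3b* had 0, 0 and 1 counts at D0 and 8, 16 and 20 counts at D5. The D5 libraries were the higher ones without overlap, at 0.319, 0.649 and 0.804 CPM, and all stayed under 1 CPM. The ratio of summed counts of *Scn3b* was 70.6, with a 95% counting interval from 12 to 2851. The gene did not pass the filter on low counts. In a fit without that filter it had a log2 fold change of 5.56 ± 0.73 (SE) and an adjusted p of 1.0e-13 by edgeR, where 26.1% of 29266 genes were higher at D5. *Scn4b*, a beta subunit that can form a disulfide bond with the alpha subunit (ENSMUSG00000046480.6, chr9:45138395-45154152, plus strand), had 0 counts in all 6 libraries. A count of 0 allows a level of up to 3 counts, or 0.122 CPM at D5, in a library of this depth.

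*Clcn1* encodes the chloride channel that carries most of the resting membrane conductance of adult muscle (ENSMUSG00000029862.15, chr6:42286685-42315756, plus strand). The D0 libraries held 62, 66 and 69 counts of *Clcn1*, or 1.66, 1.57 and 1.71 CPM. The D5 libraries held 149, 164 and 151 counts, or 5.93, 6.65 and 6.07 CPM. The D5 values were thus all higher, although *Clcn1* remained a low-level transcript in both groups. Its log2 fold change was 1.92 ± 0.13 (SE, n = 3 per group), or 3.77-fold, with an adjusted p of 2.4e-14 by edgeR's test. With factors from the ERCC spike-ins the log2 fold change was 1.36 ± 0.54 and the adjusted p 0.0368 by edgeR. *Clcn1* overlaps *Fam131b* on the opposite strand over 8.2% of its exonic length, and the strand setting of the counting is not given in the sources used here. Reads in that stretch could not be assigned with certainty. *Fam131b* itself fell, with a log2 fold change of -0.54 and an adjusted p of 5.0e-07 by edgeR.

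*Ano5* encodes an anoctamin of the endoplasmic reticulum with a role in membrane repair (ENSMUSG00000055489.8, chr7:51511029-51598709, plus strand). Its CPM values were 104, 101 and 106 at D0 and 169, 164 and 159 at D5. *Ano5* was thus already well expressed in myoblasts, and the groups did not overlap. The log2 fold change of *Ano5* was 0.66 ± 0.035 (SE, n = 3 per group), or 1.58-fold, with an adjusted p of 3.3e-17 by edgeR's test. This call depended on the scaling. The raw counts were 3884, 4263 and 4258 at D0 and 4254, 4052 and 3948 at D5, and these overlapped. Without any scaling for library size the log2 fold change of *Ano5* was -0.018 (adjusted p = 0.805 by edgeR), and with factors from the ERCC spike-ins it was 0.10 ± 0.51 (adjusted p = 0.894). With those factors 11.1% of all genes tested were higher at D5, and 2 of the 4 tested genes described here, *Scn4a* and *Clcn1*. Spike-in reads made up between 0.726% and 0.859% of a D0 library and between 0.72% and 2.09% of a D5 library. The same scalings moved the median log2 fold change of all genes tested to -0.68 and -0.58, and relative to that median *Ano5* stood at 0.66 and 0.68. A change of scaling moves all genes by nearly the same amount. The relative value could therefore hardly differ, and it is no check of the rise.

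*Atp1b1* encodes the most widespread beta subunit of the sodium pump, which carries the alpha subunit to the membrane (ENSMUSG00000026576.12, chr1:164437109-164458355, minus strand). Its CPM values were 26.8, 25.9 and 25.8 at D0 and 66.8, 64.2 and 64.5 at D5. Replicates lay close together within each group, and the groups were well separated. The log2 fold change of *Atp1b1* was 1.32 ± 0.043 (SE, n = 3 per group), or 2.49-fold, with an adjusted p of 2.3e-22 by edgeR's test. With ERCC spike-in factors the log2 fold change was 0.75 ± 0.52 and the adjusted p 0.264. Relative to the median of all genes it was 1.33, a value that, as for *Ano5*, the scaling could hardly change. *Atp1b1* overlaps *Nme7* on the opposite strand over 18.7% of its exonic length, where reads could not be assigned with certainty. *Nme7* was at 14, 13.3 and 13.3 CPM at D0 and at 11.6, 12.5 and 9.97 CPM at D5, and it fell (log2 fold change -0.25, adjusted p = 0.00269 by edgeR).

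**Figure D2:**
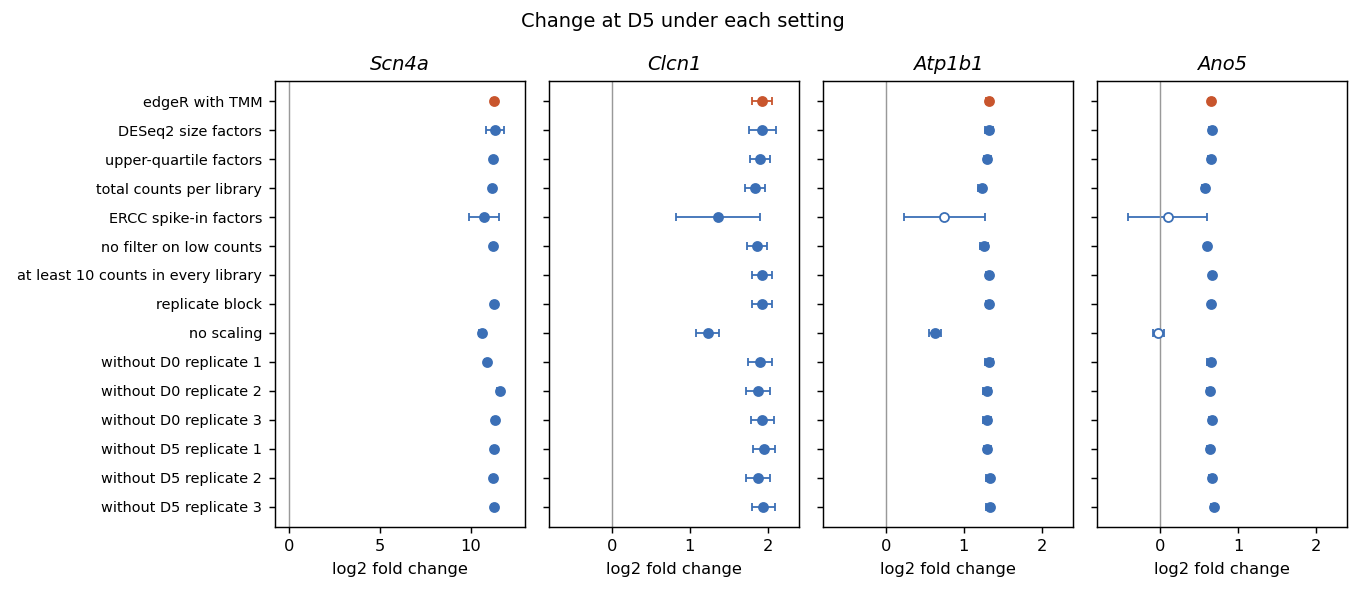
Log2 fold change of D5 against D0 (x axis, bars are standard errors) of *Scn4a*, *Clcn1*, *Atp1b1* and *Ano5* under each setting of the analysis (y axis), with the reported setting in orange. Open circles have an adjusted p above 0.05: *Atp1b1* with ERCC spike-in factors, and *Ano5* with ERCC spike-in factors (0.10) and with no scaling (-0.018). No point is drawn for *Scn4a* where a minimum of 10 counts in every library removed it.

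Levels of different genes were compared in TPM, the counts divided by exonic length and scaled to the same total in every library. At D0 the order was *Ano5* (45 to 47.4 TPM), *Atp1b1* (29.1 to 29.6 TPM) and *Clcn1* (1 to 1.11 TPM), with no overlap between neighbours. *Scn4a* (0.0129 to 0.0469 TPM) and *Scn3b* (0 to 0.0159 TPM) followed at D0, and their ranges overlapped. At D5 the order changed, and *Scn4a* came first with 75.5 to 78 TPM. *Atp1b1* (63.5 to 68.7 TPM) and *Ano5* (62.5 to 68.7 TPM) came next at D5 and did not differ beyond their spread. *Clcn1* (3.45 to 3.74 TPM) and *Scn3b* (0.185 to 0.454 TPM) followed at D5, without overlap between them.

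The same 6 libraries were then used to ask what share of its own family each gene held. Among the alpha subunits of voltage-gated sodium channels, *Scn4a* took 0.0432%, 0.154% and 0.112% of the summed TPM at D0 and 50.9%, 51.7% and 51.4% at D5. The summed level of the alpha subunits was 29.9, 30.5 and 33.3 TPM at D0 and 148, 151 and 147 TPM at D5. The total was thus higher at D5 without overlap, and *Scn4a* stood at 76.4 ± 1.41 TPM (SD, n = 3). For the share of *Scn4a*, as for the other shares tested, an exact two-sided permutation test of 3 against 3 libraries gave p = 0.1, which is the smallest p this design allows.

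Among the beta subunits of the sodium channel, *Scn3b* held 0.131% ± 0.228 (SD, n = 3) of the summed TPM at D0 and 2.25% ± 0.797 at D5. *Clcn1* took 0.425%, 0.396% and 0.434% of the ClC family at D0 and 2.21%, 2.49% and 2.29% at D5, a small part in both groups. The largest share of the ClC family was that of *Clcn5*, an endosomal exchanger, with a mean of 46.8% at D0 and 31.3% at D5. *Ano5* took 25%, 24.2% and 25% of the anoctamins at D0 and 46.7%, 45.3% and 44.6% at D5. *Ano6*, the scramblase of the plasma membrane, held a mean of 43.8% at D0 and 20.5% at D5. *Atp1b1* took 20.7%, 19.5% and 19.7% of the pump beta subunits at D0 and 29.3%, 28.9% and 30.1% at D5, while *Atp1b3* remained the main beta subunit with means of 79.8% and 69%. In these 5 families the D5 shares of *Scn4a*, *Scn3b*, *Clcn1*, *Ano5* and *Atp1b1* lay above their D0 shares without overlap. *Scn4b* held 0% in all 6 libraries, and the D0 share of *Scn3b* rests on 1 count. No such comparison of shares was made over all genes. In CPM, 42.2% of the genes tested had every D5 library above every D0 library.

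**Figure D3:**
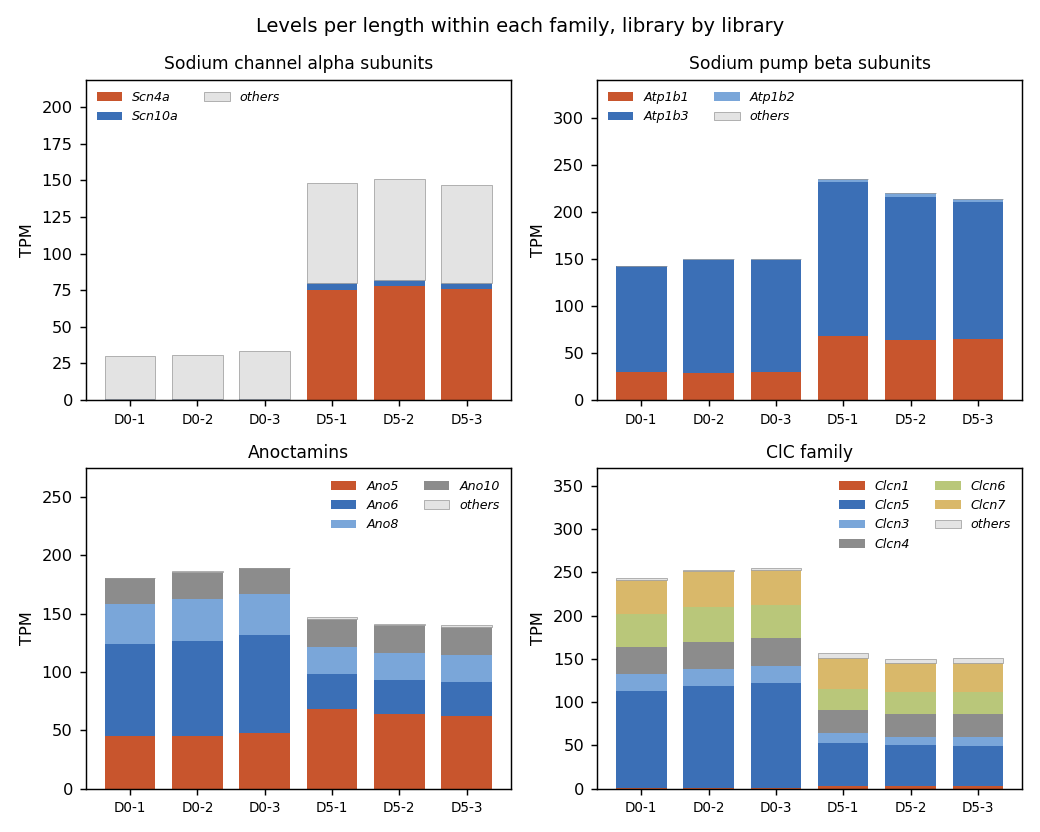
Summed TPM (y axis) of 4 gene families in each library (x axis), split by gene, with the genes not shown singly in light grey. *Scn4a* is nearly invisible at D0 and makes up about 51% of the sodium channel alpha subunits at D5, and *Ano5* grows from a mean of 24.7% to 45.5% of the anoctamins while the family total is smaller.

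Among 60 other genes of these families, which were chosen by family and with earlier results of the data known, 40 were tested, 25 were higher at D5, 12 were lower and 3 did not pass the test. The shares over all genes tested were 42.2% higher and 40.8% lower, and the counts by family below are to be read against them. Some relatives had few or no counts at D0 and passed the filter on low counts only through D5, so their call could only be higher. With ERCC spike-in factors 15 were higher and 4 lower, beside 11.1% and 23% of all genes. Among the genes named here, the calls lost were those of *Nedd4l*, *Clcn2*, *Clcn4*, *Clcn6*, *Clcn7*, *Ostm1*, *Ano8*, *Ano10*, *Atp1b3*, *Fxyd5*, *Slc12a4* and *Slc8a1*. The 6 of these that fell with TMM had lower log2 fold changes with ERCC factors, from -0.65 for *Clcn7* to -1.07 for *Clcn6*, with a larger SE of 0.52. With TMM the median log2 fold change of the relatives tested was 0.93, beside 0.0022 over all genes tested. Among the sodium channel alpha subunits, *Scn10a*, *Scn3a* and *Scn7a* were among those that rose. *Scn10a*, best known from sensory neurons, rose from a mean of 1.82 ± 0.13 CPM (SD, n = 3) to 10.9 ± 0.196 CPM. *Scn3a*, a neuronal subunit, had 2, 1 and 1 counts at D0 and 28, 32 and 45 at D5, a ratio of 42.1 with a counting interval from 16 to 157. *Scn7a*, an atypical subunit, had 0, 2 and 0 counts at D0 and 24, 35 and 28 at D5, a ratio of 69.8 with an interval from 18.8 to 586. *Scn2a*, named after its values were seen, was under 1 CPM in every library and did not pass the test (log2 fold change 0.51 ± 0.3, adjusted p = 0.11 by edgeR).

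Of the 7 genes for sodium channel partners, 5 were tested, of which 3 rose and 1 fell. *Ank3*, which encodes the ankyrin that anchors sodium channels, rose from 11.8 ± 0.105 CPM to 42.9 ± 1.2 CPM. *Fgf11*, of the intracellular FGF-homologous factors that bind the channel's C-terminus, rose from 9.76 ± 0.582 CPM to 37.6 ± 0.944 CPM. *Fgf13*, of the same group, had 0 counts in each D0 library and 72, 75 and 75 counts at D5, at least 39.5-fold higher against a floor of 3 counts per library. The ubiquitin ligase gene *Nedd4l* fell slightly (log2 fold change -0.15 ± 0.044 SE, adjusted p = 0.00251 by edgeR), and *Nedd4* did not pass the test (-0.022 ± 0.033, adjusted p = 0.528).

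The 10 other genes of the ClC list split in both directions, with 4 higher and 5 lower of 9 tested. The endosomal and lysosomal exchangers fell, namely *Clcn5* (log2 fold change -1.14 ± 0.033 SE), *Clcn3* (-0.74 ± 0.039), *Clcn6* (-0.51 ± 0.041), *Clcn4* (-0.10 ± 0.036) and *Clcn7* (-0.09 ± 0.039, adjusted p = 0.0331 by edgeR). The call of *Clcn7* was lost with DESeq2 (adjusted p = 0.0988) and in 4 of the 6 fits without 1 library, where the adjusted p by edgeR reached up to 0.0882. *Clcn4* and *Ostm1* overlap other genes on the opposite strand over 11.5% and 5.69% of their exonic length. *Ostm1*, which encodes the partner of the *Clcn7* product in lysosomes, rose instead, from 65.8 ± 1.14 CPM to 117 ± 5.16 CPM. *Clcn2*, a broadly expressed plasma membrane channel, rose from 3.3 ± 0.141 CPM to 5.29 ± 0.0761 CPM, a direction that turned without scaling (log2 fold change 0.68 with TMM and -0.0036 without scaling). The summed ClC level was 244, 253 and 255 TPM at D0 and 157, 150 and 151 TPM at D5, so that *Clcn1* rose in a family whose total was lower at D5 in every library.

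Of the 9 other anoctamins, 4 were tested. *Ano6* fell from 288 ± 5.26 CPM to 116 ± 1.18 CPM (log2 fold change -1.31 ± 0.033 SE, adjusted p = 2.0e-25 by edgeR), and *Ano8* fell from 69.8 ± 1.26 CPM to 50.6 ± 0.717 CPM. *Ano1*, the calcium-activated chloride channel, rose from 3, 3 and 5 counts to 79, 70 and 58 counts, a level of 2.77 ± 0.411 CPM. *Ano10* rose from 38.9 ± 1.29 CPM to 45.9 ± 1.29 CPM with TMM, but its log2 fold change of 0.24 turned to -0.33 with ERCC factors and to -0.45 without scaling. The anoctamin total was 180, 186 and 189 TPM at D0 and 147, 142 and 140 TPM at D5. Among the family members with a signal in both groups, *Ano5* had the highest level per length at D5 and came after *Ano6* at D0.

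Among the other beta subunits of the pump, *Atp1b2*, known from glia, rose from 0.404 ± 0.13 CPM to 4.76 ± 0.432 CPM. *Atp1b3* rose from 81.1 ± 1.68 CPM to 119 ± 4.72 CPM with TMM, a log2 fold change of 0.55 that turned to -0.0079 with ERCC factors and -0.14 without scaling. *Atp1b4* had at most 1 count in a library. Of the 7 FXYD genes, which encode small regulators of the pump, 3 were tested and rose. *Fxyd6* and *Fxyd1* passed the filter on low counts only through their D5 counts, so their call could only be higher. *Fxyd6* had 0 counts at D0 and 129, 144 and 115 counts at D5, at least 69.1-fold higher. *Fxyd1*, which encodes phospholemman and is named after its values were seen since it stayed under 1 CPM, had 0 counts at D0 and 21, 19 and 17 counts at D5, at least 10.1-fold higher. *Fxyd5* rose from 2.17 ± 0.144 CPM to 3.3 ± 0.548 CPM with TMM, a log2 fold change of 0.61 that turned to -0.074 without scaling.

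**Figure D4:**
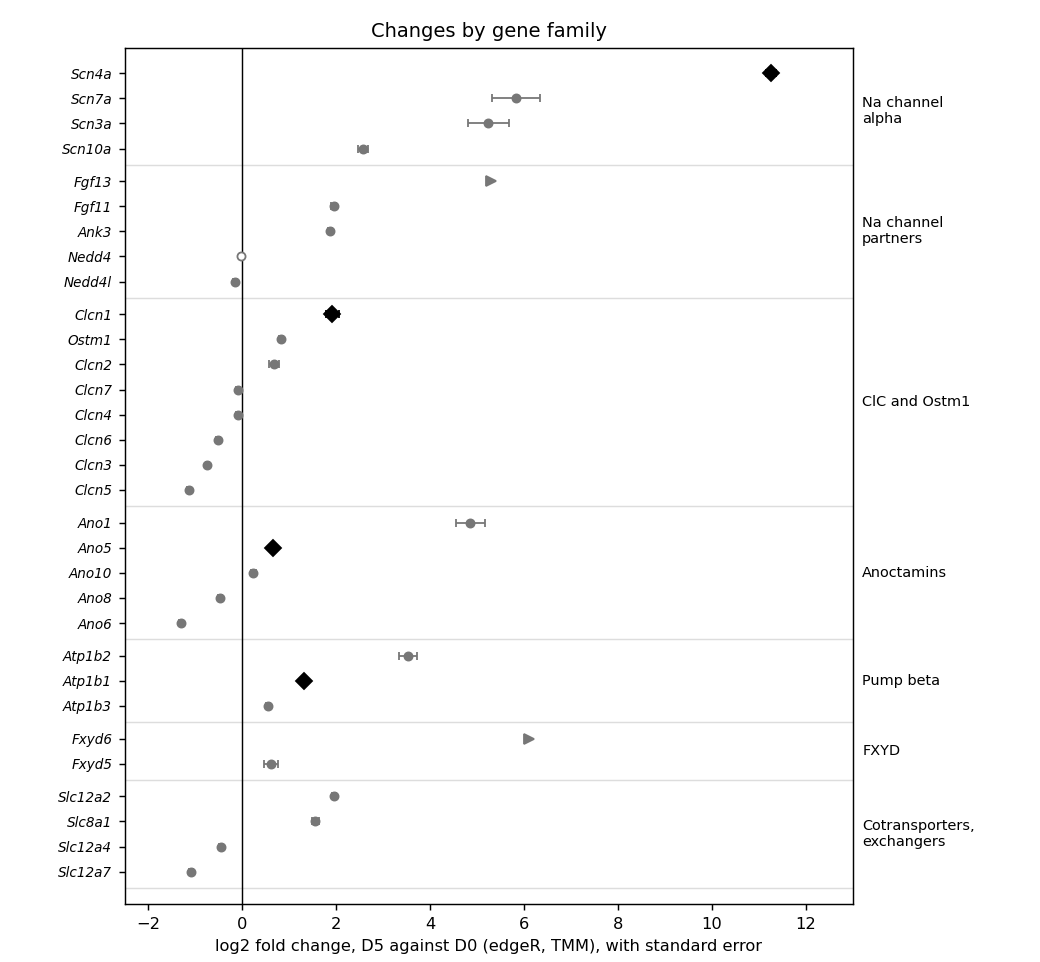
Log2 fold change of D5 against D0 (x axis, bars are standard errors from edgeR with TMM) of 31 genes by family (y axis). Black diamonds are the genes described here, grey circles their relatives, open circles did not pass the test, and triangles mark lower bounds for genes at 0 counts in every D0 library. *Scn4a* lies farthest to the right, and the ClC family and the anoctamins hold genes on both sides of 0.

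Cotransporters and exchangers that use or set the sodium and chloride gradients were tested in 8 of 9 genes, with 3 higher and 4 lower. *Slc12a2*, the cotransporter that brings sodium, potassium and chloride into the cell, rose from 33 ± 1.46 CPM to 128 ± 4.01 CPM (log2 fold change 1.96 ± 0.041 SE, adjusted p = 1.4e-27 by edgeR). The potassium chloride cotransporters, which carry chloride out, included *Slc12a7* and *Slc12a4*, which fell with log2 fold changes of -1.09 ± 0.037 and -0.46 ± 0.039. *Slc12a4* overlaps another gene on the opposite strand over 8.44% of its exonic length. *Slc8a3*, a sodium calcium exchanger that is named after its values were seen, rose from 2 counts in each D0 library to 13, 16 and 9 counts, and *Slc12a5* stayed under 1 CPM and did not pass the test. *Slc8a1*, the main sodium calcium exchanger of heart, rose from 5.81 ± 0.302 CPM to 17.1 ± 0.664 CPM.

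Markers of other cell types were measured beside these changes, since neurons, glia and heart also express several of the genes. Of 6 neuron markers, *Snap25* and *Rbfox3* had at most 1 count in a library, and *Syt1* and *Elavl3* had too few counts to be tested. *Stmn2* rose from 3.56 ± 0.461 CPM to 33.3 ± 2.29 CPM, and *Gap43* fell from 25.1 ± 2.35 CPM to 0.536 ± 0.116 CPM. These opposite changes largely cancelled in the sum, from 26.1 to 30.7 CPM at D0 and from 32.1 to 36.5 CPM at D5. Of 5 Schwann cell markers, *Sox10* had at most 1 count and 1 other fell, with sums from 2.3 to 2.62 CPM and from 1.73 to 2.03 CPM. Of 5 cardiomyocyte markers, *Nppa* and *Myl7* had at most 2 counts, *Myh6* and *Tnni3* rose, and the sums were from 0.454 to 0.77 CPM and from 25.2 to 31.1 CPM. Of 5 markers of fibroblasts and adipocytes, *Adipoq* and *Plin1* had at most 1 count, *Pdgfra*, *Dcn* and *Lum* rose, and the sums were from 1.28 to 1.55 CPM and from 262 to 302 CPM. The part of these marker changes in the results was not tested.

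For each tested gene, the genes with the nearest profile were found by Euclidean distance between centred log2 CPM values (prior count 0.5) over the 6 libraries, among 11996 genes. For *Scn4a* these were *Myh8*, the perinatal myosin heavy chain, at a distance of 0.24, and *Smpx* at 0.27. *Myh8* had a mean of 0.0248 CPM at D0 and 173 CPM at D5. At D0 *Scn4a*, *Myh8* and *Smpx* all lay under the prior count, so these matches rest mainly on the D5 levels. The fitted log2 fold change was 12.55 for *Myh8* and 11.26 for *Scn4a*. For *Clcn1* they were *Etfrf1* (0.066) and *Bdnf* (0.07), for *Ano5* *Nipal3* (0.045) and *Cgrrf1* (0.048), and for *Atp1b1* *Prss23* (0.054) and *Zfp697* (0.07). Each distance rests on the same 6 libraries in 2 groups and is a description.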

How the data were processed

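Total RNA from 6 C2C12 cultures was sequenced. Per the labels and the study's methods, reads were aligned to GRCm38, and the authors deposited raw counts per gene from featureCounts, with no normalization and a separate file for each culture. The labels and the methods name different aligners and quality tools. Annotation release, strand setting and handling of multi-mapping reads are not given in the sources used here. Rows of ERCC spike-ins, and a nameless row that repeats the column total, entered neither library sizes nor tests.

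Quasi-likelihood tests with TMM factors were run on these counts in edgeR 4.0.16 (R 4.3.3) after filterByExpr, with group as the only term and Benjamini-Hochberg adjustment over 16290 genes at a threshold of 0.05. SE is the absolute log2 fold change over the root of the F statistic. TPM used exonic lengths from GENCODE, which held 99.9% of the Ensembl identifiers. Exact 95% counting intervals and the floor of 3 counts cover counting error only. No library was a copy of another, with replicate pairs at 2.28 to 3.71 times sampling noise by chi-square per degree of freedom. The code was tested on simulated data.

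The genes of the set are all named. Of their families, genes with a mean of at least 1 CPM in a group could be named, with exceptions stated, as could the markers and, for each tested gene, the 2 nearest profiles among genes with such a mean. Genes and lists were chosen with earlier results of these data known. Alternatives comprised DESeq2 1.42.0, upper-quartile and total-count scaling, ERCC spike-in factors, dropping the low-count filter, a minimum of 10 counts in all libraries, fits without 1 library, a replicate block, shares from CPM in place of TPM, and, chosen after seeing the data, no scaling. Promoters came from RefSeq. Some genes of these families are not reported here, and other measurements of the study were not analysed here.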

Additional observations from a re-analysis of the deposited data

How the results depend on the processing

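Depth limits what can be said of *Scn3b* and *Scn4b*, and of *Scn4a* at D0. The 4 tested genes were higher at D5 in every fit that left out 1 library, with log2 fold changes of 10.91 to 11.60 for *Scn4a*, 1.87 to 1.95 for *Clcn1*, 0.64 to 0.69 for *Ano5* and 1.29 to 1.33 for *Atp1b1*. With ERCC spike-in factors the value of *Ano5* was 0.10 and that of *Atp1b1* 0.75, both no longer past the threshold, and without scaling *Ano5* was at -0.018. ERCC factors left 2 of the 4 tested genes higher at D5. Among the 60 relatives 15 were higher and 4 lower, and among all genes tested 1813 were higher and 3747 lower. Without scaling the last counts were 3353 and 10953, against 6869 and 6641 with TMM, so that 50.8% of calls were higher with TMM, 32.6% with ERCC factors and 23.4% without scaling. A minimum of 10 counts in every library left 16 relatives higher, since it tests fewer genes, and gave no value for *Scn4a*. The direction turned for *Ano10* (-0.33 with ERCC factors, -0.45 without scaling), *Atp1b3* (-0.0079 and -0.14), *Clcn2* (-0.0036 without scaling), *Fxyd5* (-0.074 without scaling) and *Nedd4* (from -0.05 to 0.00075 when each library was left out, the latter without D5 replicate 3). The cause was not tested. From CPM in place of TPM, the difference in family share was 45.9 percentage points for *Scn4a* (51.3 from TPM), 5.94 for *Scn3b* (2.12), 1.22 for *Clcn1* (1.91), 22.5 for *Ano5* (20.8) and 10.3 for *Atp1b1* (9.44), because TPM divides by length. Whether the replicate numbers pair the samples is not known. Deviations of same-numbered libraries correlated at 0.0275, 0.104 and 0.0469, and each library correlated best with its own number. Other pairs ranged from -0.0661 to 0.0151. Correlations this weak cannot decide the question. A replicate block gave 6894 genes higher and 6664 lower and changed no call among the 4 genes, whose log2 fold changes stayed at 11.26, 1.92, 0.66 and 1.32.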

Other observations

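Other chloride and sodium channel genes were looked up in lists drawn up after the data had been seen, so their counts are a description. Of the 5 subunits of the volume-regulated anion channel, 4 fell, where 40.8% of all genes tested were lower, with log2 fold changes of -0.93 ± 0.058 (SE) for *Lrrc8a*, -1.43 ± 0.051 for *Lrrc8b*, -1.29 ± 0.063 for *Lrrc8c* and -1.47 ± 0.096 for *Lrrc8e*, while *Lrrc8d* did not pass edgeR's test (-0.068 ± 0.078, adjusted p = 0.421). *Lrrc8a*, the subunit every such channel needs, went from 26.2, 27.4 and 26 CPM at D0 to 13.1, 14 and 14.5 CPM at D5. *Lrrc8a* shares 66.2% of its exonic length with other annotated genes on the same strand, so its counts are uncertain. The chloride intracellular channel genes moved in both directions. *Clic1* fell from 386 ± 17.9 CPM (SD, n = 3) to 112 ± 4.69 CPM and *Clic4* from 581 ± 4.06 CPM to 347 ± 3.6 CPM, whereas *Clic5* rose from 0.863 ± 0.161 CPM to 20.6 ± 2.82 CPM. *Clic3* had 0, 1 and 1 counts at D0 and 116, 148 and 114 counts at D5, a ratio of 303 with a counting interval from 83.4 to 2513.

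Of the bestrophins, *Best1* rose from 0.628 ± 0.166 CPM to 7.41 ± 0.576 CPM and *Best3* from 0.415 ± 0.0592 CPM to 3.89 ± 0.433 CPM. *Cftr*, the cystic fibrosis chloride channel, is named as an exception, since it stayed under 1 CPM in every library. It fell to the floor, with 17, 20 and 21 counts at D0 and 0, 2 and 0 counts at D5. *Ttyh3* fell (log2 fold change -1.66 ± 0.039) and *Ttyh2* did not pass the test. Among sodium channels that voltage does not open, *Nalcn*, a leak channel gene best known from neurons, had 0 counts in each D0 library and 103, 109 and 103 counts at D5, at least 56.1-fold higher against a floor of 3 counts per library. *Asic1*, an acid-sensing channel gene, rose from 0.0776 ± 0.0693 CPM to 1.77 ± 0.0715 CPM. *Scnn1a* rose from 0.678 ± 0.0765 CPM to 1.15 ± 0.131 CPM with TMM (adjusted p = 0.00415 by edgeR). Its raw counts overlapped, at 26, 25 and 30 at D0 and 28, 32 and 26 at D5. Values under other scalings are not reported here for the genes of these added lists.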
